A study of Mus musculus with 2 samples.

Results

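The 9 miRNA genes Mir192, Mir215, Mir204, Mir190a, Mir122, Mir802, Mir216a, Mir216b and Mir217 are known from kidney, liver and pancreas. All 9 were found by symbol among the 2202 miRNA genes counted in mouse adrenal gland. The kidney list held Mir192, Mir215, Mir204 and Mir190a, the liver list Mir122 and Mir802, and the pancreas list Mir216a, Mir216b and Mir217. The tissue came from female B6CASTF1/J mice aged 4 days, which are first-generation hybrids of C57BL/6J and CAST/EiJ parents. There was 1 group, with 2 libraries labelled as biological replicates 1 and 2, and no treatment or mutation is given. The labels number the females separately but list 1 donor identifier for both libraries. P-values therefore compare only these 2 libraries, whose differences may be technical. Those of the exact binomial test take counting error as the only error.

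A miRNA gene is transcribed as a long primary RNA, from which a hairpin is cut and then processed to a mature strand. The mature strand pairs with target mRNAs mainly through its seed, the bases 2 to 8 from its 5′ end. Mir122 is the hallmark miRNA of hepatocytes, where it takes part in lipid metabolism. Mir192, Mir194 and Mir215 are known from kidney, gut and liver epithelium, and the Mir216 and Mir217 genes from pancreatic acinar cells. The adrenal gland sits on the upper pole of the kidney, close to the liver on one side and to the tail of the pancreas on the other. In whole tissue, reads from attached tissue, from blood and from adrenal cells cannot be told apart, nor can fewer cells of a type and less RNA per cell.

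The mature 5′ strands are shown to tell which genes share a seed and which could exchange reads. They are from RefSeq (build GRCm38.p6), which gave mature entries for 8 of the 9 genes (all but Mir122), written 5′ to 3′ with the seed in capitals.
miR-192-5p: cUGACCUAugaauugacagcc
miR-215-5p: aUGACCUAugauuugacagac
miR-204-5p: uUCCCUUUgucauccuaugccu
miR-211-5p: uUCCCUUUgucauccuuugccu
miR-190a-5p: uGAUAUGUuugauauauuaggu
miR-190b-5p: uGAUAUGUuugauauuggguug
miR-802-5p: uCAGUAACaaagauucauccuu
miR-216a-5p: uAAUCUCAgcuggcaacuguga
miR-216b-5p: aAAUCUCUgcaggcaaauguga
miR-217-5p: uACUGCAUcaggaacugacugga
miR-194-5p: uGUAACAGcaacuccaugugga
Among the members, miR-192-5p and miR-215-5p had the same seed and differed by C1A, A12U and C20A (the base of miR-192-5p, the position from the 5′ end, then the base of miR-215-5p). The strands miR-216a-5p and miR-216b-5p differed by U1A, A8U, U11A and C17A, written in the same way, so their seeds were not the same. Outside the list, miR-204-5p shared its seed with miR-211-5p, from which it differed by A17U, and miR-190a-5p shared its seed with miR-190b-5p. The strand miR-7670-3p also had the seed of miR-204-5p. The seed of miR-802-5p was found in no other mature mouse miRNA of the table. Each mature strand of the 8 members was held by 1 hairpin, whereas miR-194-5p was held by the hairpins of both Mir194-1 and Mir194-2.

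The deposited counts leave out multimapping reads, so a strand held by a pair of hairpins is undercounted. Of the members, only Mir190a shared a run of 18 bases with another hairpin, that of Mir190b. Counts were per hairpin, so the 2 strands of a hairpin were not told apart. Replicate 1 had 4960537 reads assigned to miRNA genes and replicate 2 had 4506482, which were 42.4% and 39.9% of all reads. Levels are given as CPM, counts scaled to a common total of these miRNA reads, on which scale 1 read was worth 0.202 CPM in replicate 1 against 0.222 CPM in replicate 2. Detection here means 10 reads or more in each library, which 377 genes of the table reached.

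Together the 9 genes took 0.209% of the miRNA reads in replicate 1 and 0.281% in replicate 2, with 95% Wilson intervals of 0.205 to 0.213 and 0.276 to 0.286. The liver list made up most of this, at 0.171% in replicate 1 and 0.264% in replicate 2 (mean 0.217% ± 0.0656, SD, n = 2). The kidney list took 0.0374% in replicate 1 and 0.0168% in replicate 2 (mean 0.0271% ± 0.0145, SD, n = 2). The pancreas list took 0.000161% and 0.000266% (mean 0.000214% ± 7.43e-05, SD, n = 2). The kidney list was therefore higher in replicate 1 and the liver list higher in replicate 2. Their intervals, which cover counting error only, did not overlap in either case. Judged against counting error alone, 68.2% of all detected genes differed between the libraries, by the test described below. The liver sum followed Mir122, as Mir802 had 1298 reads in replicate 1 and 1 in replicate 2. In the kidney list Mir192 had 897 and 119 reads, and Mir190a 216 and 155. The intervals of the pancreas list overlapped.

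**Figure D1:**
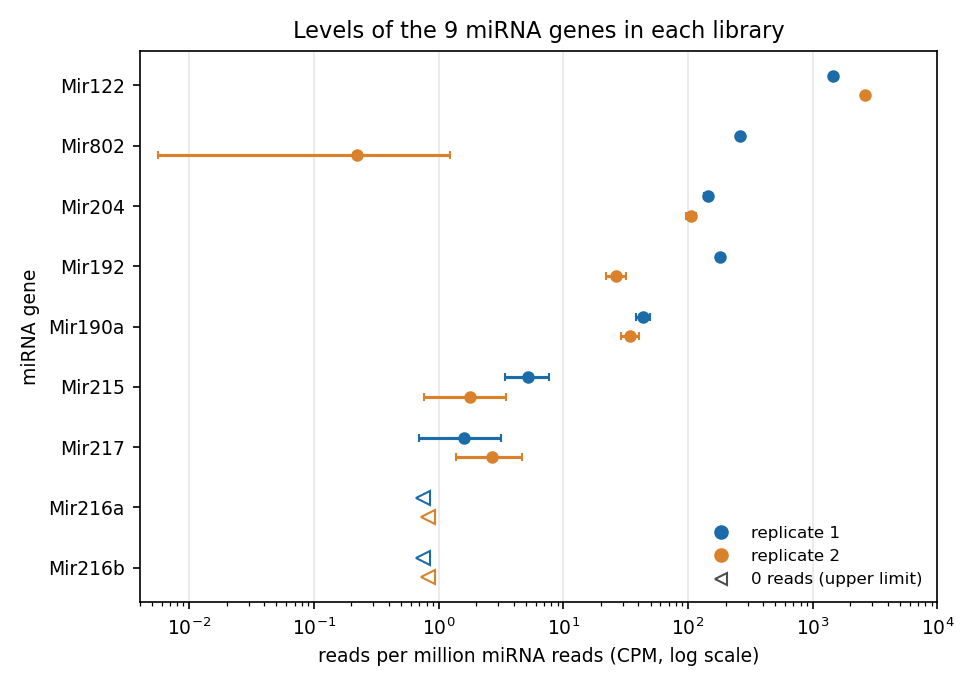
Level of each of the 9 miRNA genes in replicate 1 (blue, upper point) and replicate 2 (orange, lower point), in CPM on a log axis, with bars for the 95% exact Poisson interval and open triangles at the upper limit for 0 reads. Mir122 was at 1449 CPM in replicate 1 and 2638 CPM in replicate 2, Mir802 was at 262 CPM in replicate 1 against 0.222 CPM in replicate 2, and Mir216a and Mir216b had no read.

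By mean CPM the order was Mir122, Mir802, Mir204, Mir192, Mir190a, Mir215 and Mir217, with Mir216a and Mir216b at 0. Mir122 stood above every other member in both libraries. Mir802, Mir204, Mir192 and Mir190a followed as a chain in which the values of each neighbouring pair overlapped, so the order of neighbours is not settled by 2 libraries. Mir204 (106 to 144 CPM) did lie above Mir190a (34.4 to 43.5 CPM) in both libraries. Mir215 and Mir217 also overlapped each other and lay below the values of Mir190a. Of the 9 genes, 4 were detected (Mir192, Mir204, Mir190a and Mir122), 3 had reads in both libraries but fewer than 10 in at least 1 of them (Mir215, Mir802 and Mir217), and 2 had none.

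Each gene's reads were set against the TMM-scaled library sizes by a two-sided exact binomial test, adjusted by Benjamini-Hochberg over the 377 detected genes. The test compares these 2 libraries and takes counting error as the only error, and each log2 ratio is replicate 1 over replicate 2. It called 3 of the 4 detected members, against 68.2% of all detected genes. Of these, 2 were higher in replicate 1, where 32.6% of all detected genes were, and 1 was higher in replicate 2, where 35.5% were. A call together with a 2-fold ratio was met by 1 member (Mir192) and by 18.3% of detected genes. The count of called members is thus near the background of this pair of libraries. An exact test in edgeR, with the dispersion shared by all genes of the pair, called none of the 4 members and 1.86% of the detected genes. That dispersion was estimated from the same 2 libraries that the test compares. A call by it therefore marks only a gene that stands out among the genes of this pair. At an unadjusted p under 0.05 this exact test had 24 of the 377 genes, Mir192 among them (p = 0.00645).

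Mir192 was the kidney gene with the widest difference between the libraries. It had 897 reads (181 CPM) in replicate 1 and 119 reads (26.4 CPM) in replicate 2. It ranked 182 of all genes in replicate 1 and 261 in replicate 2. The scaled ratio was 6.25-fold (95% interval 5.16 to 7.64), a log2 ratio of 2.64 with an adjusted p of 4.0e-118 by the exact binomial test. With the dispersion of the pair, edgeR's exact test gave an adjusted p of 0.203. Only 7 of the 377 detected genes had a higher ratio toward replicate 1. The 3 detected genes closest to it in log2 ratio over the 2 libraries were Mir214 (18060 and 2444 reads, log2 ratio 2.62), Mir205 (196 and 27 reads, 2.59) and Mir15a (24867 and 3999 reads, 2.37).

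Mir192 lies on chromosome 19 (6264844 to 6264932, plus strand, mm10) in no annotated host gene, 115 bases after Mir194-2, with which it is known to share a primary transcript. Mir194-2 (chromosome 19, 6264643 to 6264728) had 250 reads (50.4 CPM) in replicate 1 and 57 reads (12.6 CPM) in replicate 2. Both genes of the pair were thus higher in replicate 1, Mir194-2 by 3.64-fold (log2 ratio 1.86, interval 1.44 to 2.30, adjusted p = 2.31e-22 by the exact binomial test). The reads of Mir194-2 leave out those of miR-194-5p that map equally to Mir194-1. Mir192 had 3.59 times the reads of Mir194-2 in replicate 1 and 2.09 times in replicate 2. The quotient of these ratios was 1.72 (1.19 to 2.45), so the ratio within the library also differed beyond counting error.

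Mir215 carries the same seed as Mir192 but was far lower. It had 26 reads (5.24 CPM) in replicate 1 and 8 reads (1.78 CPM) in replicate 2, and so did not pass the minimum. Its log2 ratio of 1.43 (0.25 to 2.78) was toward replicate 1, as for Mir192. Its position is chromosome 1, 185313581 to 185313692 on the plus strand, within an exon of the antisense gene 2010103J01Rik and an intron of Iars2, which is on the opposite strand. Its neighbour Mir194-1, 195 bases upstream, had 0 reads in replicate 1 and 4 in replicate 2, with the same limit from the shared miR-194-5p. Mir192 had 34.5 times the reads of Mir215 in replicate 1 and 14.9 times in replicate 2, and the quotient of 2.32 had an interval (0.886 to 5.42) that included 1.

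Mir204 was among the steadier members. It is encoded in an intron of Trpm3, a cation channel gene, on chromosome 19 (22750605 to 22750672, plus strand), and is known from kidney, retinal pigment epithelium and choroid plexus. It had 714 reads (144 CPM) in replicate 1 and 476 reads (106 CPM) in replicate 2. The ratio was 1.24-fold (log2 ratio 0.32, interval 0.15 to 0.49), with an adjusted p of 3.83e-04 by the exact binomial test and 1 by edgeR's exact test. Its seed relative Mir211, in an intron of Trpm1 and known from pigment cells, had 4 reads in replicate 1 and 3 in replicate 2. Nearly all reads of this pair therefore came from Mir204.

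Mir190a lies on chromosome 9 (67236660 to 67236726, minus strand) in an intron of Tln2, which encodes talin 2, a protein that links integrins to actin. It had 216 reads (43.5 CPM) in replicate 1 and 155 reads (34.4 CPM) in replicate 2. The log2 ratio was 0.21 (-0.10 to 0.52), and the difference did not pass the exact binomial test (adjusted p = 0.226). Without TMM factors, scaling by the totals alone, which moves every log2 ratio up by 0.13, put it at 0.34 and it passed (adjusted p = 0.0381, exact binomial test). Mir190b, its seed relative, had 50 reads in replicate 1 and 40 in replicate 2 and no call (adjusted p = 0.954, exact binomial test).

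The kidney genes did not keep a constant proportion to each other. Mir192 had 1.26 times the reads of Mir204 in replicate 1 and 0.250 times in replicate 2, a quotient of 5.03 (4.00 to 6.34). Against Mir190a it had 4.15 times and 0.768 times the reads, a quotient of 5.41 (4.04 to 7.24). Mir204 against Mir190a was at 3.31 in replicate 1 and 3.07 in replicate 2, with a quotient of 1.08 (0.843 to 1.37). Mir192 thus changed places with Mir204 and with Mir190a between the libraries, while the ratio of Mir204 to Mir190a differed by no more than counting error. These ratios need no scaling between libraries, and the 9 pairs computed were chosen after the values were seen. Their intervals are 95% exact intervals that cover counting error only.

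**Figure D2:**
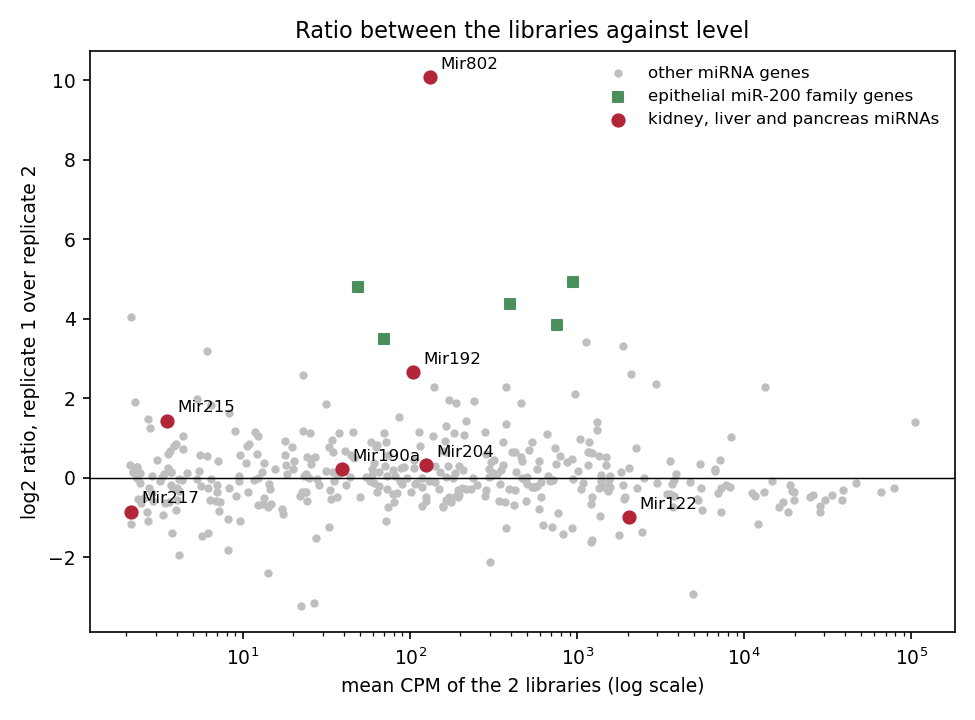
Log2 ratio of TMM-scaled reads, replicate 1 over replicate 2, against mean CPM (log axis) for miRNA genes with a mean of at least 10 reads and a read in both libraries, with 7 of the 9 genes in red, the epithelial miR-200 family in green and other genes in grey. Mir802 lies at 10.07 and Mir192 at 2.64, while Mir204 and Mir190a lie near 0 and Mir122 at -0.996.

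Mir122 was the most abundant member and the one called higher in replicate 2. It had 7188 reads (1449 CPM) in replicate 1 and 11890 reads (2638 CPM) in replicate 2. It ranked 78 in replicate 1 and 52 in replicate 2 of all 2202 genes. The scaled level was 1.99-fold higher in replicate 2 (95% interval 1.94 to 2.05), a log2 ratio of -0.996 that passed the exact binomial test, while edgeR's exact test gave an adjusted p of 1. Its position is chromosome 18, 65248861 to 65248926 on the plus strand, within an exon of the long non-coding RNA gene AC157910.3.

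Mir802, known from liver, where its level was linked to glucose metabolism in mice, and also from kidney and pancreas, differed most between the libraries. It had 1298 reads (262 CPM) in replicate 1 and 1 read (0.222 CPM) in replicate 2. It ranked 161 in replicate 1 and 623 in replicate 2. With 1 read below the line, the ratio of 1077 has a counting interval from 193 to 42564, and the log2 ratio was 10.07 (7.59 to 15.38). All reads were on the annotated strand, and the gene shares no run of 18 bases with another hairpin. Its position is chromosome 16, 93369720 to 93369816 on the plus strand, with no annotated host gene. The 2 liver genes thus went in opposite directions, Mir802 being higher in replicate 1 and Mir122 higher in replicate 2. Mir802 had 0.181 times the reads of Mir122 in replicate 1 and 8.41e-05 times in replicate 2.

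The minimum of 10 reads in both libraries leaves Mir802 out. With a minimum of 10 reads in the mean, 396 genes entered, 7 members among them. This rule admits a gene through the library in which it is high. Mir802 and Mir215 entered in that way through replicate 1 and Mir217 through replicate 2, so their reads had to be unequal. The counts below are therefore descriptions and support nothing. Mir217 was not called (adjusted p = 0.325, exact binomial test). Of the 19 genes it admitted with fewer than 10 reads in 1 library, 14 were higher in replicate 1 and 5 in replicate 2, and Mir802 alone had at least 100 reads in the other library. Mir802 had the highest ratio of the 395 genes with reads in both libraries. The exact binomial test called 5 of the 7 members and 67.2% of all 396 genes. It called 4 members higher in replicate 1 (33.1% of all) and 1 higher in replicate 2 (34.1% of all). A call with a 2-fold ratio was met by 3 members (Mir192, Mir215 and Mir802) and 19.7% of all genes. The exact test in edgeR called 1.26% of the 396 genes, which were Mir802, admitted through replicate 1, and Mir200b, Mir141, Mir200c and Mir429. With at least 1 read in either library, 831 genes entered, and the exact binomial test called 5 members and 31.8% of all genes. It called 4 of these members higher in replicate 1, where 15.4% of all genes were.

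The pancreas genes were at or near 0. Mir217 had 8 reads (1.61 CPM) in replicate 1 and 12 reads (2.66 CPM) in replicate 2, with a log2 ratio of -0.85 (-2.35 to 0.56). Mir216a and Mir216b had 0 reads in both libraries, which allows up to 0.605 CPM in replicate 1 and 0.666 CPM in replicate 2 (3 reads). All 3 lie on the plus strand of chromosome 11, Mir216b at 28746191 to 28746276, Mir216a at 28757012 to 28757083 and Mir217 at 28763728 to 28763835. Mir216a and Mir217 lie in introns of the long non-coding RNA gene Gm12082, 6644 bases apart. Mir216c, annotated on the strand opposite Mir216b, also had 0 reads in both libraries.

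**Figure D3:**
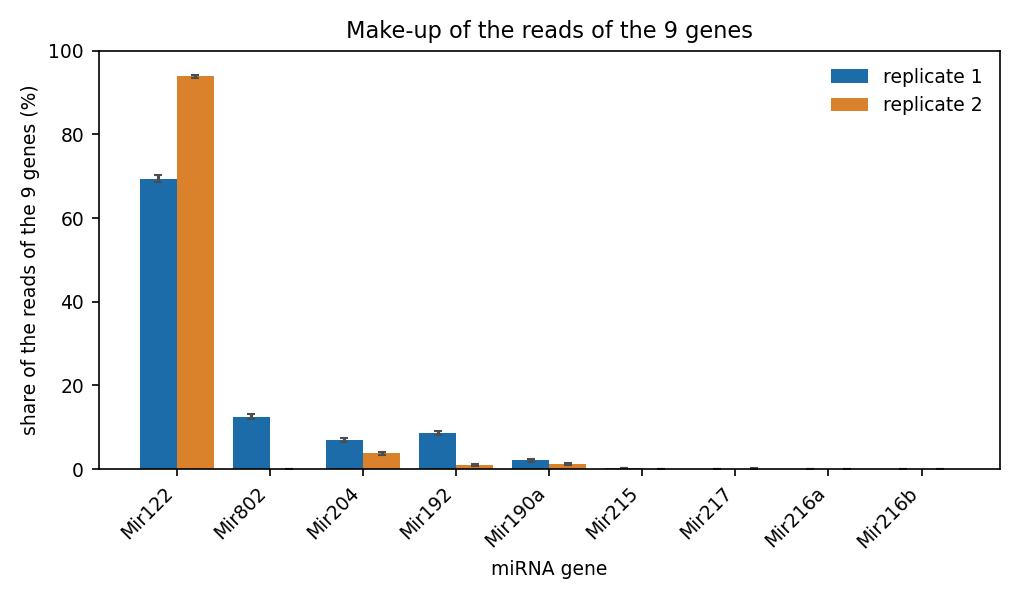
Share (%) of the reads of the 9 genes taken by each gene in replicate 1 (blue, left bar) and replicate 2 (orange, right bar), with 95% Wilson intervals. Mir122 took 69.5% in replicate 1 and 93.9% in replicate 2, and Mir802 took 12.5% in replicate 1 and 0.00790% in replicate 2.

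Among the reads of the 9 genes, Mir122 took 69.5% in replicate 1 and 93.9% in replicate 2. Mir802 took 12.5% and 0.00790%, Mir192 8.67% and 0.940%, and Mir204 6.90% and 3.76%. These shares sum to a fixed whole, so a higher count of Mir122 lowers the share of every other gene. In CPM, Mir204 was at 144 in replicate 1 and 106 in replicate 2, and Mir190a at 43.5 in replicate 1 and 34.4 in replicate 2. The kidney list had 1853 reads in replicate 1 and still 758 in replicate 2.

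Marker lists of other tissues also differed between the libraries, but not all in the same direction or to the same degree. The 5 epithelial miR-200 family genes summed to 4224 CPM in replicate 1 and 192 CPM in replicate 2. All 5 were called higher in replicate 1 by the exact binomial test, as were 32.6% of all detected genes. Over the 377 detected genes edgeR's exact test also called all 5, and 1.86% of all. With a minimum of 10 reads in the mean, edgeR's exact test did not call Mir200a (adjusted p = 0.0789). The median log2 ratio of the 5 genes was 4.36, against -0.04 over all 377 detected genes. Mir192 had 0.0992 times the reads of Mir200b in replicate 1 and 0.482 times in replicate 2, so the miR-200 genes differed more than Mir192 did. The erythroid list, with 3 of its 4 genes matched by symbol, summed to 1059 CPM in replicate 1 and 287 CPM in replicate 2. Mir144 and Mir451a were called higher in replicate 1 and Mir486 in replicate 2 by the exact binomial test. Mir486 shares a run of 18 bases with the hairpin of Mir3107 on the opposite strand, so multimapping reads can be missing from its count. None of these 3 calls held in edgeR's exact test (adjusted p = 0.720, 0.720 and 1). Striated muscle genes went the way of Mir122. The 5 genes summed to 1249 CPM in replicate 1 against 8686 CPM in replicate 2, and the exact binomial test called the 3 detected ones (Mir206, Mir499 and Mir208b) higher in replicate 2, as it did 35.5% of all detected genes. None of these held in edgeR's exact test (adjusted p = 0.0957, 0.0798 and 1). Mir208a, a heart muscle gene, was at 0 and 2 reads. The 4 neuroendocrine genes, led by Mir375, were closer to level, at 40218 CPM in replicate 1 and 45617 CPM in replicate 2, with a median log2 ratio of -0.05. With Mir194-1 and Mir194-2 added, the 6 kidney genes summed to 424 CPM and 182 CPM, and 3 of the 4 detected were called higher in replicate 1 by the exact binomial test, again beside 32.6% of all detected genes. In edgeR's exact test none of these 3 was called (adjusted p = 0.203 for Mir192, 0.805 for Mir194-2 and 1 for Mir204). The part of these other tissues in the members' values was not tested.

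**Figure D4:**
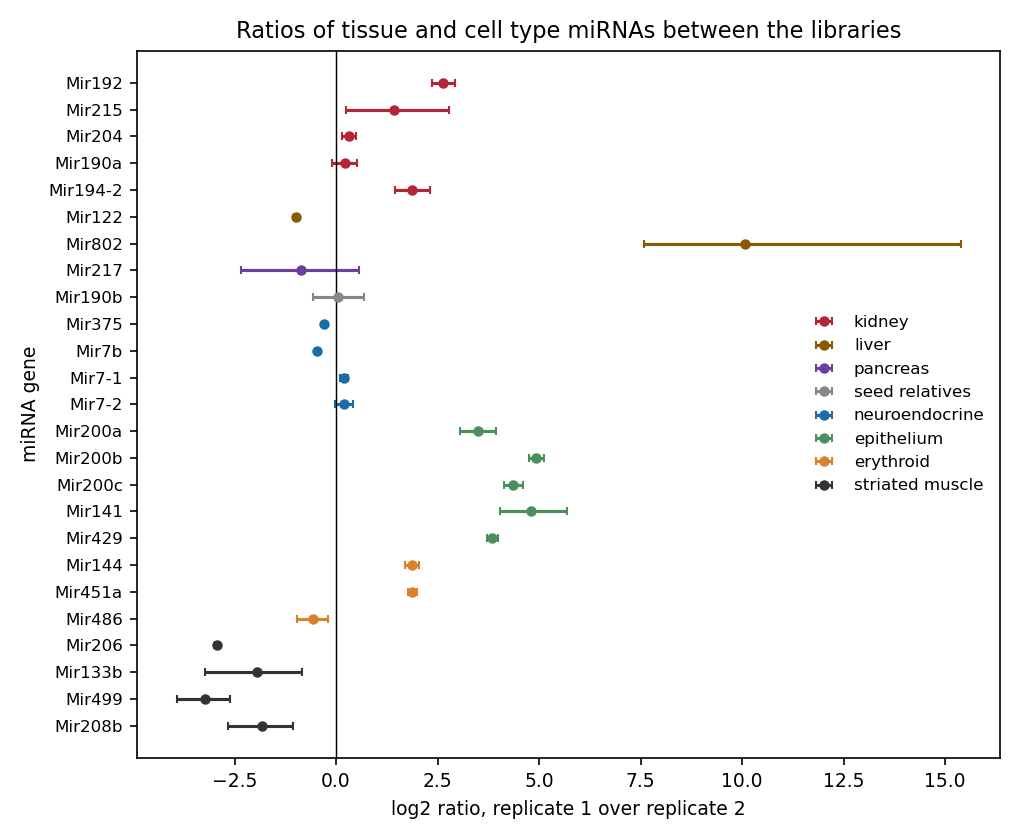
Log2 ratio of TMM-scaled reads, replicate 1 over replicate 2, with its 95% exact interval, for the 9 genes, their relatives and the marker lists, coloured by list (genes with fewer than 20 reads in all are not drawn). The miR-200 genes lie from 3.49 to 4.92, the detected striated muscle genes from -3.23 to -1.83, and the kidney genes from 0.21 to 2.64.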

How the data were processed

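The authors deposited raw read counts per miRNA gene for each library, not normalized. The build was mm10 and the annotation GENCODE M21, per the file headers. The aligner is not given in the sources used here, nor is the counting tool. Of 3 count columns without names, the one for the annotated strand was used, an assignment read from the values. The 4 leading rows, which name no gene, were left out of library sizes. They held 25.8% and 26.1% unmapped, 25.9% and 27.8% multimapping and 5.96% and 6.24% unassigned reads in replicates 1 and 2.

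CPM, Wilson and exact Poisson intervals (95%) and exact binomial tests were computed with scipy 1.17.1. TMM factors (1.05 and 0.956, from all genes with a read) and the exact test with a common dispersion (biological coefficient of variation 0.433) came from edgeR 4.0.16, and size factors from DESeq2 1.42.0. edgeR's quasi-likelihood test needs replicated groups and was not run. The binomial script was tested on simulated data. Its pass criteria were set only for simulated counts with counting error alone, a setting that need not hold for these libraries. Since PCR reads that carry no molecular identifiers are not independent, intervals and floors cover counting error only. A CAST/EiJ allele that differs from the reference can lower a count.

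The text names all 9 members, miRNA genes within 10 kb on the same strand, the seed relatives Mir211 and Mir190b, the marker lists, and, for each detected member with a 2-fold ratio, the 3 detected genes closest in log2 ratio. Genes outside this rule (Mir200b as a ratio partner, Mir216c) were chosen after their values were seen, and miR-7670-3p is named for its seed alone. The members and lists were chosen with earlier results of these data known. Mir486b was not matched to a row by its symbol, and other names of the gene were not searched.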

Additional observations from a re-analysis of the deposited data

How the results depend on the processing

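Over the alternatives run, no member's log2 ratio changed direction. The split of all called genes did depend on the scaling. In the main setting 123 genes were called higher in replicate 1 and 134 in replicate 2. The split was 144 and 112 by total miRNA reads and 133 and 120 by TMM factors from the detected genes alone. By DESeq2 size factors it was 129 and 129. Log2 ratios ranged from 2.64 to 2.78 for Mir192, 9.92 to 10.20 for Mir802, 0.32 to 0.45 for Mir204, 0.21 to 0.34 for Mir190a and -0.996 to -0.86 for Mir122. Of 50 alternatives for the members' log2 ratios, 45 kept their side of the threshold. They include those of Mir215, Mir802 and Mir217, whose starting point was the mean rule, which admits a gene through its higher library. Alternatives that change only which genes enter leave a log2 ratio as it was. This count is therefore a description and supports nothing. With all reads as the denominator, the list shares were 0.0113% (kidney), 0.0889% (liver) and 8.73e-05% (pancreas), since the total is larger. Without hairpins that share runs, the liver share was 0.325% and the pancreas share 0.000320% of the smaller total. Leaving out 1 replicate at a time, the shares ranged from 0.0168% to 0.0374% (kidney), 0.171% to 0.264% (liver) and 0.000161% to 0.000266% (pancreas). Under edgeR's exact test 7 genes were called, 7 higher in replicate 1 and 0 in replicate 2, with 24 at an unadjusted p under 0.05, and 0 members were called, 0 of them in either direction. With at least 1 read in either library 5 members were called, 4 higher in replicate 1 (264 of all 831 genes), and with a mean of at least 10 also 5 and 4 (266 of all 396 genes). Mir802, Mir215 and Mir217 then entered. Under the mean rule Mir802 and Mir215 did so through replicate 1 and Mir217 through replicate 2, where each is higher. With at least 1 read in both, 7 members counted as detected. TMM factors from the detected genes alone, an alternative chosen after seeing the data, moved each log2 ratio by 0.08, and DESeq2 size factors by 0.04.

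No paired analysis was possible because the series has 1 group. With 1 library per replicate, no difference has a replicate check, and values under about 3 reads (0.605 and 0.666 CPM) are at the limit of detection.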
